A study of Perna viridis with 2 samples.

Results

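The mitochondrial respiratory chain was followed in the mantle of the green mussel *Perna viridis* through the genes whose product name gives them as a subunit of complexes I to V or as a factor that assembles one. A name was taken in when it began with NDUF, SDH, UQCR, COX and a digit, ATPeF or ATP5, or when it held the written name of a complex or was cytochrome b. The names were those of the deposited annotation, and 109 of the 78458 assembled genes met the rule: 55 of complex I, 5 of complex II, 7 of complex III, 30 of complex IV and 12 of complex V. Of these, 93 were subunits and 16 were assembly factors.

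The study measured bulk RNA from 2 regions of the mantle, the tissue that lines the shell: the periostracal groove, found where the outer fold of the mantle edge meets the middle one, and the submarginal zone, found inward of the folds as far as the pallial line. Each region has 1 deposited expression profile. The animals of both regions were untreated and of unknown genotype, tissue of 6 animals went into a sample, and no cell type was selected, so a region with fewer mitochondria-rich cells and one with less of these transcripts per cell cannot be told apart. The unit of the authors' values is not named. They were taken as TPM, a length-adjusted measure of a gene's share of all transcripts, because of their sum in each region. The profiles carry no replicate values, so every difference here is a difference between 2 profiles with no replicate check and no test. The value column of either table is headed with the name of a groove sample, and the tables were told apart by the database record each belongs to; an exchange of the tables would turn every direction given here.

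The respiratory chain sits in the inner mitochondrial membrane. Complex I takes electrons from NADH and complex II takes them from succinate, both hand them to ubiquinone, complex III passes them to cytochrome c, and complex IV gives them to oxygen. Complexes I, III and IV pump protons as they do so, and complex V, the ATP synthase, uses the returning protons to make ATP. Most subunits are encoded in the nucleus and imported, while a small set at the core of complexes I, III, IV and V is encoded in mitochondrial DNA; all subunits of complex II are nuclear in animals.

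Transcripts of the chain were less abundant in the groove than in the submarginal zone, and by similar factors in most subunits. Summed over the 93 subunits they made up 13326 TPM in groove tissue and 27207 TPM in submarginal tissue, a log2 ratio of sums of -1.03, or 1.33% of all transcripts of the groove and 2.72% of those of the submarginal zone. With 16 further chain genes whose names fall outside the rule, added after their values were seen, the sums were 23976 TPM (groove) and 49609 TPM (submarginal zone). The sum over the 93 subunits rests mostly on mitochondrially encoded genes, which held 9322 TPM in the groove, against 19722 TPM in the submarginal zone. The nuclear subunits held 4004 TPM in groove tissue and 7485 TPM in submarginal tissue.

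For single genes the log2 ratio of groove over submarginal zone was taken after adding 1 TPM to both, and genes with a ratio of at least 1 in size (2-fold) whose higher region reached 10 TPM were counted. Of the 93 subunits, 52 reached 10 TPM; 3 of these, NDUFA2, NDUFB6 and NDUFB11, did so in the submarginal zone alone, where a filter on the higher region favours a difference. Of these 52, 30 were 2-fold lower in the groove and 1 was 2-fold higher, beside 27.6% lower and 15.2% higher among all 5800 genes that reached 10 TPM. The median log2 ratio of the 52 subunits was -1.03, and the middle of their distribution was narrow, with quartiles at -1.18 and -0.92. Over all 5800 genes the median was -0.55, with quartiles at -1.07 and 0.12, and 72.4% of them had the lower value in the groove. Of the 52 subunits, 48 lay below that median of all genes and 4 above it. Over the 65 subunits that averaged 1 TPM or more, the median log2 ratio was -0.97, beside -0.31 over all genes of such a level. At 1.5-fold, 46 of the 52 subunits were lower, beside 47.8% of all genes, and 1 was higher, beside 18.6%. None of the 52 was 4-fold lower, beside 12.4% of all genes, or 4-fold higher, beside 9.45%.

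How many subunits pass 2-fold depends on how the profiles are scaled. Median-of-ratios scaling, which sets the typical ratio of moderately expressed genes near 1, moved the median of all genes by 0.34 to -0.21. Under it 5 of the 52 subunits were 2-fold lower in the groove, or 9.62%, beside 19.2% of all genes, and 1 was 2-fold higher. Of all genes, 1601 were 2-fold lower and 880 were 2-fold higher in the groove as deposited, and 1113 were lower and 1035 higher after that scaling. A scaling moves all ratios nearly alike, so the subunits kept their distance from the median of all genes: their own median was -0.68 under it, and 49 of the 52 were lower in the groove.

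**Figure D1:**
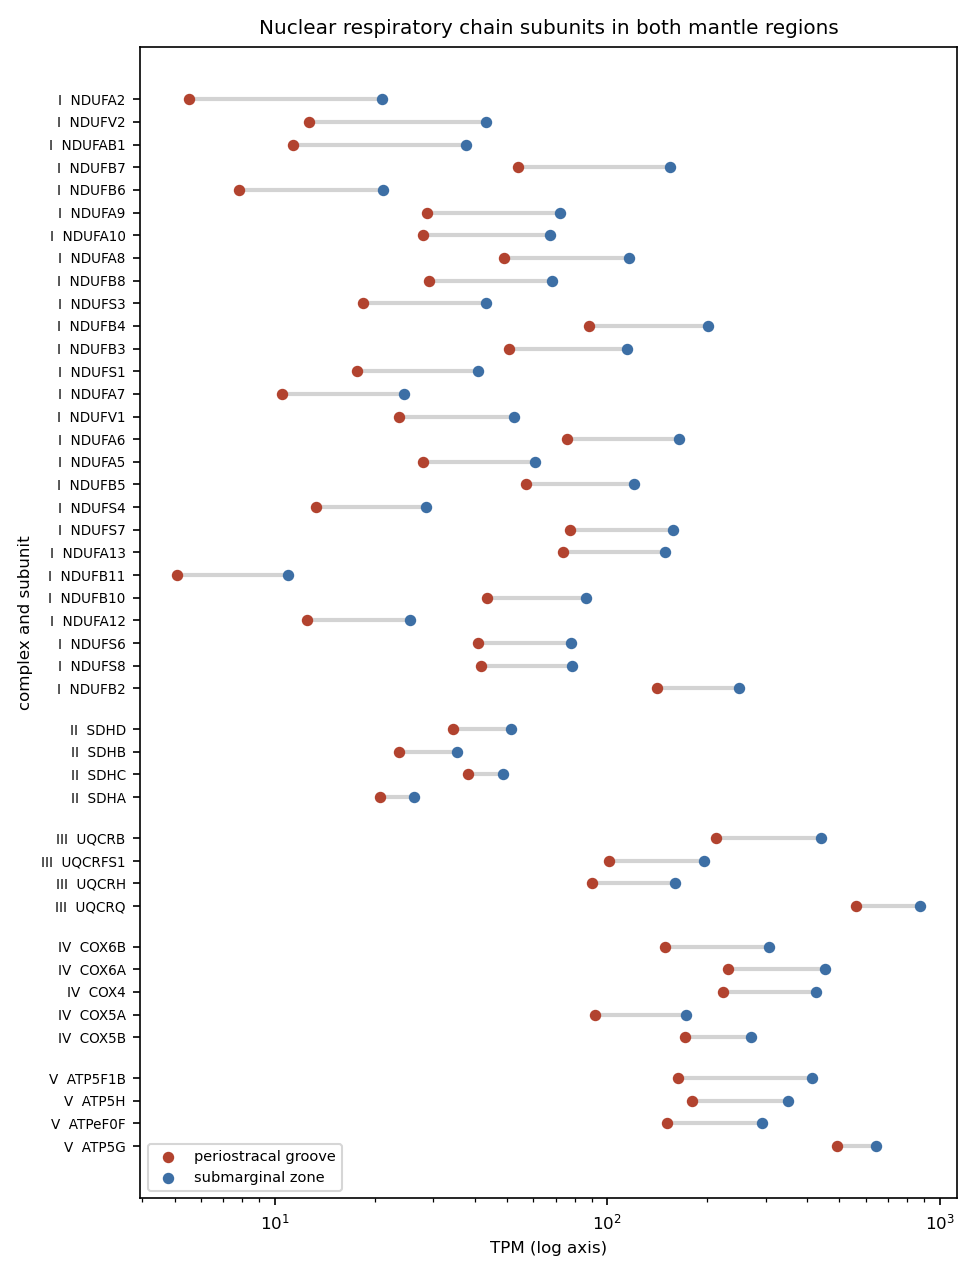
Level of 44 of the 45 nuclear respiratory chain subunits that reached 10 TPM, in TPM on a log axis, with a red point for the periostracal groove and a blue point for the submarginal zone, ordered by complex and, within a complex, by log2 ratio. All 44 had the lower value in the groove, and the bars joining the points are shortest for the 4 subunits of complex II and for ATP5G.

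Complex I was the complex with the most members. All 28 of its nuclear subunits that reached 10 TPM were lower in the groove, beside 72.4% of all genes. Of these 28, 22 were 2-fold lower, or 78.6% beside 27.6% of all genes. Their log2 ratios ran from -1.76 to -0.81 with a median of -1.15. Under median-of-ratios scaling 5 of the 28 were still 2-fold lower, beside 19.2% of all genes. The subunits that carry out catalysis and the accessory subunits around them had like medians, -1.16 for 7 core subunits and -1.15 for 21 accessory ones.

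In the peripheral arm, where NADH is oxidised, NDUFV2, which carries an iron-sulfur cluster, had 12.7 TPM (groove) and 43.3 TPM (submarginal zone), a log2 ratio of -1.69. NDUFV1, its partner that binds NADH and the flavin, had 23.6 TPM in groove tissue and 52.3 TPM in submarginal tissue. NDUFS1, which holds the next iron-sulfur clusters of the arm, had 17.7 TPM in the groove, against 40.8 TPM in the submarginal zone. These 3 subunits were each 2-fold lower in the groove.

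Subunits that lead from there to ubiquinone include NDUFS3, NDUFS7 and NDUFS8. NDUFS3 had 18.5 TPM (groove) and 43.3 TPM (submarginal zone). NDUFS7, which holds the last iron-sulfur cluster before ubiquinone, had 77.5 TPM in groove tissue and 158 TPM in submarginal tissue. NDUFS8, which holds a pair of clusters, was the core subunit nearest to equal, with 41.7 TPM in the groove, against 78.6 TPM in the submarginal zone, and a log2 ratio of -0.90. NDUFS4, an accessory subunit needed for a stable complex in mammals, had a groove level of 13.3 TPM and a submarginal level of 28.5 TPM. NDUFS6, another accessory subunit of this arm, had 40.9 TPM (groove) and 78.0 TPM (submarginal zone) and stayed under 2-fold.

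The accessory subunits of the alpha group held the member with the lowest log2 ratio of all. NDUFA2, a small subunit of the peripheral arm, had 5.53 TPM in groove tissue and 21.1 TPM in submarginal tissue, a log2 ratio of -1.76. NDUFAB1, an acyl carrier protein that also serves mitochondrial fatty acid synthesis, had 11.4 TPM in the groove, against 37.5 TPM in the submarginal zone, a log2 ratio of -1.64. NDUFA9 had a groove level of 28.7 TPM and a submarginal level of 72.1 TPM. These 3 genes were each 2-fold lower in the groove. NDUFA10 had 27.9 TPM (groove) and 67.6 TPM (submarginal zone). NDUFA8 had 48.8 TPM in groove tissue and 116 TPM in submarginal tissue. NDUFA7 had 10.5 TPM in the groove, against 24.6 TPM in the submarginal zone. These subunits were 2-fold lower in the groove as well. NDUFA6, which binds the acyl carrier protein in mammals, had a groove level of 75.8 TPM and a submarginal level of 165 TPM. NDUFA5 had 27.99 TPM (groove) and 60.7 TPM (submarginal zone). NDUFA13, known in mammals also as GRIM-19, had 73.8 TPM in groove tissue and 149 TPM in submarginal tissue, just past 2-fold. NDUFA12 was just under it, with 12.6 TPM in the groove, 25.5 TPM in the submarginal zone and a log2 ratio of -0.97.

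The accessory subunits of the beta group belong to the membrane arm, which pumps protons. NDUFB7 had the lowest log2 ratio among them, -1.51, with 53.9 TPM in the groove, against 155 TPM in the submarginal zone. NDUFB6 had a groove level of 7.81 TPM and a submarginal level of 21.2 TPM, a log2 ratio of -1.33. NDUFB8 had 29.1 TPM (groove) and 68.2 TPM (submarginal zone). All 3 were 2-fold lower in the groove. NDUFB4 had 88.2 TPM in groove tissue and 201 TPM in submarginal tissue. NDUFB3 had 50.6 TPM in the groove, against 114 TPM in the submarginal zone. NDUFB5 had a groove level of 56.9 TPM and a submarginal level of 121 TPM. These 3 were 2-fold lower as well, while the remaining members of the group were not. NDUFB10 had 43.5 TPM (groove) and 86.2 TPM (submarginal zone). NDUFB11 had 5.10 TPM in groove tissue and 11.0 TPM in submarginal tissue, the lowest level of the 28. NDUFB2 was the most abundant nuclear subunit of the complex and had the smallest difference of the 28, with 141 TPM in the groove, 249 TPM in the submarginal zone and a log2 ratio of -0.81.

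**Figure D2:**
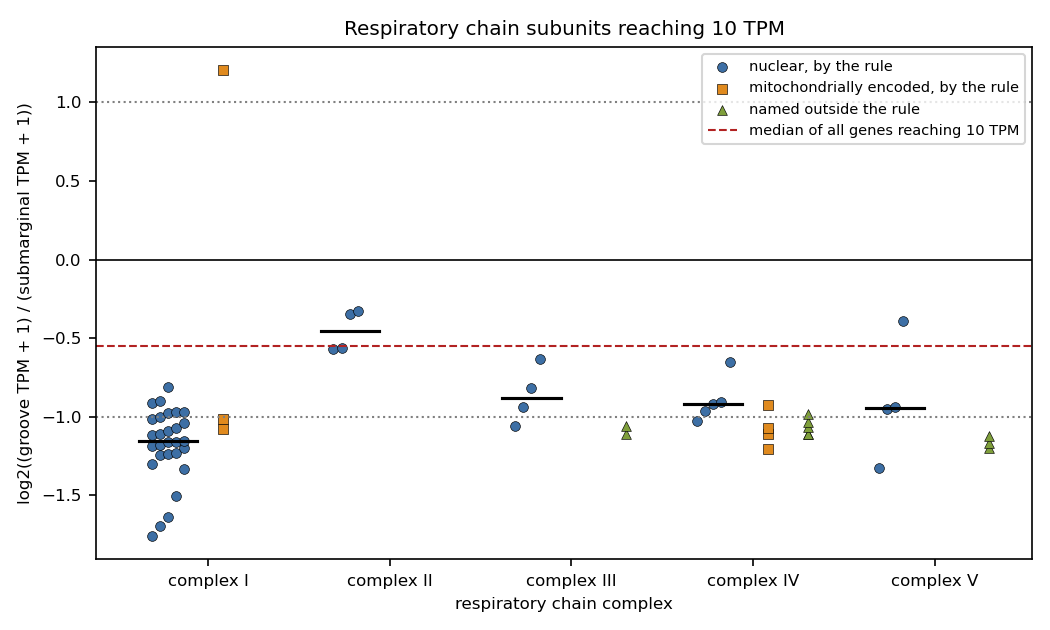
Log2 ratio of groove over submarginal zone, after adding 1 TPM to both, for each subunit that reached 10 TPM, by complex; blue circles are nuclear genes, orange squares mitochondrially encoded genes and green triangles subunits whose names fall outside the rule. Black bars are medians of the blue circles, dotted lines are 2-fold and the dashed line is the median of all genes reaching 10 TPM, -0.55; complex II sits around that line and ND6 alone lies above 0.

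Complex II, succinate dehydrogenase, had the smallest median difference of the 5 complexes. It is also an enzyme of the tricarboxylic acid cycle and pumps no protons. SDHA, the flavoprotein that oxidises succinate and is named SDH1 in the annotation, had 20.7 TPM in the groove, against 26.3 TPM in the submarginal zone, a log2 ratio of -0.33. SDHB, which holds the iron-sulfur clusters, had a groove level of 23.6 TPM and a submarginal level of 35.3 TPM, a log2 ratio of -0.56. SDHC and SDHD anchor the enzyme in the membrane and bind ubiquinone there. SDHC had 38.1 TPM (groove) and 48.7 TPM (submarginal zone), a log2 ratio of -0.35. SDHD had 34.3 TPM in groove tissue and 51.4 TPM in submarginal tissue, a log2 ratio of -0.57. None of the 4 was lower by 1.5-fold, their median of -0.45 was close to that of all genes at -0.55, and, among subunits that reached 10 TPM, no nuclear one of complexes I, III and IV had a log2 ratio as high as any of these 4. Under median-of-ratios scaling SDHA and SDHC turned to slightly higher in the groove, with log2 ratios of 0.02 and 0.01. The difference between complex II and the other complexes has no test, since each gene has 1 value per region.

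In complex III, the cytochrome bc1 complex, all 4 nuclear subunits that the rule found were lower in the groove, beside 72.4% of all genes. Their median log2 ratio was -0.88. UQCRFS1, the Rieske iron-sulfur protein that takes electrons from ubiquinol, had 101 TPM in the groove, against 195 TPM in the submarginal zone, a log2 ratio of -0.94. UQCRB had a groove level of 212 TPM and a submarginal level of 441 TPM. It was the 1 of the 4 that reached 2-fold, or 25% beside 27.6% of all genes. UQCRH, the hinge protein beside cytochrome c1, had 90.3 TPM (groove) and 159.6 TPM (submarginal zone). UQCRQ, named as subunit 8 of the complex, was the most abundant nuclear subunit of the whole chain, with 562 TPM in groove tissue and 873 TPM in submarginal tissue, and its log2 ratio was -0.63. Both remaining abundant subunits carry names that the rule does not take in and were added after their values were seen. CYC1, the cytochrome c1 that hands electrons to cytochrome c, had 88.8 TPM in the groove, against 186 TPM in the submarginal zone. UQCRC2, a core subunit, had a groove level of 82.0 TPM and a submarginal level of 178 TPM. Both were 2-fold lower in the groove, and with them the median of the complex's nuclear subunits was -0.998.

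In complex IV, cytochrome c oxidase, the 5 nuclear subunits that reached 10 TPM were likewise lower in the groove, beside 72.4% of all genes. Their median log2 ratio was -0.92. COX4, which takes part in the control of the enzyme by ATP in mammals, had 224 TPM (groove) and 424 TPM (submarginal zone). COX6A had 231 TPM in groove tissue and 451 TPM in submarginal tissue. COX6B, which faces the space between the membranes, had 149.8 TPM in the groove, against 306 TPM in the submarginal zone, a log2 ratio of -1.03. It was the 1 of these 5 at 2-fold, or 20% beside 27.6% of all genes. COX5A and COX5B differed least. COX5A had a groove level of 92.2 TPM and a submarginal level of 173 TPM. COX5B, which binds zinc, had 172 TPM (groove) and 270.0 TPM (submarginal zone), a log2 ratio of -0.65.

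In complex V, the ATP synthase, the beta subunit and the c subunit stood at opposite ends. ATP5F1B, the beta subunit that forms ATP in the catalytic head, had 164 TPM in groove tissue and 412 TPM in submarginal tissue, a log2 ratio of -1.33. ATP5G, which forms the ring of c subunits that the protons turn, had 491 TPM in the groove, against 643 TPM in the submarginal zone, a log2 ratio of -0.39. ATP5H, the d subunit of the stalk that holds the head in place, had a groove level of 180.4 TPM and a submarginal level of 349 TPM. ATPeF0F, the f subunit of the membrane part, had 152 TPM (groove) and 292 TPM (submarginal zone). Thus 1 of the 4 was 2-fold lower, or 25% beside 27.6% of all genes. Of the 45 nuclear subunits that reached 10 TPM, the c subunit was the only one outside complex II to lie above the median of all genes. A further 3 subunits, named in the annotation as parts of the F-type proton-transporting ATPase, fall outside the rule and were added after their values were seen. ATP5F1A, the alpha subunit of the head, had 158 TPM in groove tissue and 363 TPM in submarginal tissue. ATP5PB, the b subunit of the stalk, had 93.8 TPM in the groove, against 212 TPM in the submarginal zone. ATP5PO, the subunit that joins the stalk to the head, had a groove level of 100.0 TPM and a submarginal level of 219 TPM. All 3 were 2-fold lower in the groove, at log2 ratios from -1.20 to -1.12, and with them the median of the complex's nuclear subunits was -1.12.

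Levels of the 45 nuclear subunits spanned from 5.10 to 562 TPM in the groove and from 11.0 to 873 TPM in the submarginal zone, and their order was much the same in both regions. Over these 45 genes the log2 levels of both regions had a Pearson correlation of 0.982, given as a description of genes that share the same 2 profiles. The SD of their log2 ratios was 0.32. On this scale, taken as length-adjusted, the subunits of complexes I and II were the least abundant. Those of complex I had median levels of 28.4 TPM (groove) and 67.9 TPM (submarginal zone). Those of complex II had median levels of 29.0 TPM (groove) and 42.0 TPM (submarginal zone). Complex IV nuclear subunits had medians of 172 TPM in groove tissue and 306 TPM in submarginal tissue.

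Mitochondrially encoded subunits gave 38 members, of which 8 had a *Perna* mussel as best match. Of those 8, 7 reached 10 TPM: 5 were 2-fold lower in the groove, 1 was lower by less and 1 was 2-fold higher. The 2-fold lower ones were 71.4% of the 7, beside 27.6% of all genes, and the higher one 14.3%, beside 15.2%. COX3, a core subunit of complex IV, was the most abundant member of the chain by the rule, with 3458 TPM in the groove, against 7973 TPM in the submarginal zone, a log2 ratio of -1.20. ND4, a proton-pumping subunit of complex I, had a groove level of 582 TPM and a submarginal level of 1228 TPM. ND5, another pumping subunit, had 309 TPM (groove) and 624 TPM (submarginal zone). All 3 were 2-fold lower in the groove, and their log2 ratios, from -1.20 to -1.01, lay inside the range of the nuclear subunits.

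COX1 is the catalytic subunit of complex IV and holds the haem and copper sites where oxygen is reduced. By the rule, 3 assembled genes with a *Perna* match bear its name. The first had 2078 TPM in groove tissue and 3942 TPM in submarginal tissue, a log2 ratio of -0.92. The second had 1390.0 TPM in the groove, against 3005 TPM in the submarginal zone, a log2 ratio of -1.11. The third had a groove level of 1370.5 TPM and a submarginal level of 2879.8 TPM, a log2 ratio of -1.07. A further 5 assembled genes with *Perna* matches are named cytochrome oxidase subunit I without the c and were added after their values were seen; they ranged from 833 to 3834 TPM in the groove and from 1645 to 8029 TPM in the submarginal zone. The 8 fragments of this name with a *Perna* match had log2 ratios from -1.11 to -0.92, a narrow range that is not a replicate error. Of the *Perna*-matching mitochondrial genes, 5 share 1 assembly cluster: 3 pieces of COX1, ND4 and ND5. Genes of 1 cluster can share reads, so they are not separate measurements.

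ND6, a membrane subunit of complex I, was the exception. It had 108 TPM (groove) and 46.1 TPM (submarginal zone), a log2 ratio of 1.20, and was the only one of the 52 abundant subunits to be higher in the groove. Under median-of-ratios scaling its log2 ratio was 1.56. Its level was below that of the other abundant mitochondrial genes in both regions, the next one up being ND5. ND2, whose best match was *Perna canaliculus*, is listed at 0 in both regions.

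**Figure D3:**
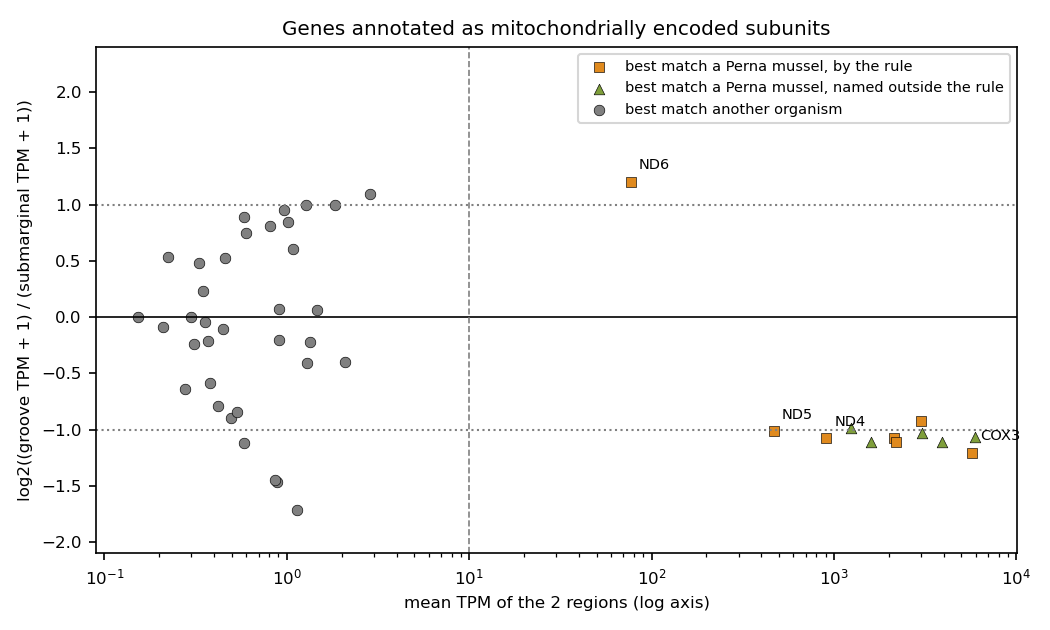
Log2 ratio of groove over submarginal zone against the mean TPM of both regions (log axis) for each assembled gene named as a mitochondrially encoded subunit and above 0 in a region, those named outside the rule included. Genes with a *Perna* best match lie to the right of the dashed line at 10 TPM and, apart from ND6 at 1.20, between -1.20 and -0.92; genes that match another organism lie to its left and spread to both sides of 0.

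The other 30 mitochondrially encoded members had best matches outside *Perna* and were rare, with their higher region between 0.30 and 4.26 TPM. Summed, they held 27.8 TPM in the groove, against 23.7 TPM in the submarginal zone. Their direction was mixed, 16 being higher and 14 lower in the groove. The median log2 ratio of the 16 mitochondrially encoded members that averaged 1 TPM or more was -0.31, against -1.07 for the 7 abundant *Perna* matches.

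Every member named ND1, ND3, ND4L, cytochrome b, COX2 or ATP6 was a fragment of this kind. The 2 fragments named ND1, a membrane subunit of complex I near the ubiquinone pocket, had 0.39 and 0.72 TPM in the groove, against 0.50 and 0.20 TPM in the submarginal zone. Both named ND3, a small subunit at the bend of complex I, had 1.51 and 1.59 TPM in groove tissue and 1.41 and 0.34 TPM in submarginal tissue. The 1 named ND4L had 1.59 TPM (groove) and 0.44 TPM (submarginal zone). The 3 named cytochrome b, which binds ubiquinol in complex III, lay between 0 and 1.30 TPM in groove tissue and between 0.32 and 1.77 TPM in submarginal tissue. The 3 named COX2, which takes electrons from cytochrome c, lay between 0.10 and 2.78 TPM in groove tissue and between 0.66 and 2.53 TPM in submarginal tissue. The 3 named ATP6, the channel beside the c ring, lay between 0.043 and 1.51 TPM in groove tissue and between 0.30 and 0.94 TPM in submarginal tissue. Subunits that also had *Perna* matches gave the others. The 4 named ND2 lay between 0.34 and 1.05 TPM in groove tissue and between 0 and 0.38 TPM in submarginal tissue. The 3 named ND4 lay between 0 and 1.01 TPM in groove tissue and between 0.19 and 1.17 TPM in submarginal tissue. The 2 named ND5 had 0.043 and 0.55 TPM in groove tissue and 0.80 and 0.11 TPM in submarginal tissue. COX1 gave the highest value of the 30. The 4 named COX1 lay between 0 and 4.26 TPM in groove tissue and between 0.42 and 1.72 TPM in submarginal tissue. The 3 named COX3 lay between 0 and 2.02 TPM in groove tissue and between 0.52 and 1.62 TPM in submarginal tissue.

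The 30 fragments were grouped by the phylum of the best match after their values were seen. The 4 that matched flatworms were all lower in the groove, with a summed 0.0433 TPM in groove tissue and 5.60 TPM in submarginal tissue, and 3 of them were listed at 0 in the groove. The 7 that matched echinoderms summed to 7.43 TPM (groove) and 3.12 TPM (submarginal zone), and 5 of them were higher in the groove. The 8 that matched hemichordates summed to 8.58 TPM in groove tissue and 6.06 TPM in submarginal tissue, with 6 higher in the groove. The 6 that matched other molluscs summed to 7.48 TPM in the groove, against 5.15 TPM in the submarginal zone. The 3 arthropod matches, 1 chordate match and 1 cnidarian match were each below 3 TPM in both regions. The origin of these fragments was not tested.

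Among all 41 subunits under 10 TPM, these fragments included, 20 were higher and 20 lower in the groove, and 1 was at 0 in both regions. Of the 41, 2 had a *Mytilus* or *Perna* best match, against 48 of the 52 subunits that reached 10 TPM. Of the 109 members, 97 were above 0 in both regions and 11 were at 0 in 1 region.

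Assembly factors build the complexes and are not part of them. All 16 had the lower value in the groove, beside 72.4% of all genes that reached 10 TPM, a level that 4 of the 16 reached. None reached both 2-fold and 10 TPM. Their median log2 ratio was -0.72, beside -0.31 over all genes that averaged 1 TPM or more. COX17, a copper chaperone for complex IV, had a groove level of 10.7 TPM and a submarginal level of 18.5 TPM. COX20, which helps COX2 to mature, had 11.8 TPM (groove) and 16.9 TPM (submarginal zone). COA5, a complex IV assembly factor, had 9.02 TPM in groove tissue and 15.2 TPM in submarginal tissue. These 3 were the most abundant assembly factors. SDHAF2, which helps attach the flavin to SDHA, was the only assembly factor 2-fold apart with at least 5 TPM in the higher region. It had 2.47 TPM in the groove, against 9.10 TPM in the submarginal zone, a log2 ratio of -1.54, while SDHA itself was at -0.33. The complex I factors NDUFAF2, NDUFAF3, NDUFAF5 and NDUFAF7 lay between 2.58 and 5.57 TPM in the groove and between 5.56 and 10.3 TPM in the submarginal zone. COX16, a complex IV factor, had 3.85 TPM (groove) and 7.39 TPM (submarginal zone). COX19, which works with COX17 in copper supply, had 3.28 TPM (groove) and 5.59 TPM (submarginal zone). The other 6 factors stayed under 5 TPM in both regions and had log2 ratios from -0.84 to -0.08.

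In the gene lists around the chain, counts at 2-fold can be read against the same shares of all genes, 27.6% lower and 15.2% higher in the groove. The enzymes that feed the chain also had lower values in the groove. The pyruvate dehydrogenase complex, which turns pyruvate into acetyl-CoA, had 5 genes that reached 10 TPM, and all 5 were 2-fold lower. Its subunit PDHA had a groove level of 30.5 TPM and a submarginal level of 71.8 TPM. Its E2 component had 7.58 TPM (groove) and 24.1 TPM (submarginal zone), a log2 ratio of -1.55. Its E3 component, dihydrolipoamide dehydrogenase, had 16.1 TPM in groove tissue and 41.0 TPM in submarginal tissue. The tricarboxylic acid cycle makes the NADH and succinate that complexes I and II oxidise. Its list had 8 of 13 genes 2-fold lower, none 2-fold higher, and a median log2 ratio of -1.31. The list was drawn by name and also holds genes that may not belong to the cycle. A cytosolic malate dehydrogenase had a log2 ratio of -0.14. A putative malate dehydrogenase 1B, counted among the 8, had a log2 ratio of -1.31, which is the list's median. A gene named malate dehydrogenase had 80.5 TPM in groove tissue and 151 TPM in submarginal tissue. A gene named isocitrate dehydrogenase had 99.4 TPM in the groove, against 120.7 TPM in the submarginal zone. The NAD+-dependent isocitrate dehydrogenase had a groove level of 4.85 TPM and a submarginal level of 27.4 TPM, a log2 ratio of -2.28. An IDH3 gene had 8.85 TPM (groove) and 41.6 TPM (submarginal zone).

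The list of electron carriers and other entry points to the chain had members on both sides. CYC, the cytochrome c that runs between complexes III and IV, had 220 TPM in groove tissue and 357 TPM in submarginal tissue. The electron transfer flavoprotein beta subunit, which brings electrons from fatty acid oxidation, had 37.5 TPM in the groove, against 77.0 TPM in the submarginal zone. A gene named as the alpha subunit of this flavoprotein had 22.2 TPM (groove) and 43.0 TPM (submarginal zone), a log2 ratio of -0.92. GPD1 had a groove level of 1.12 TPM and a submarginal level of 29.6 TPM, a log2 ratio of -3.85. It entered the list by its name as a glycerol-3-phosphate dehydrogenase. The symbol stands for the cytosolic enzyme, which does not itself pass electrons to the chain. A second gene named glycerol-3-phosphate dehydrogenase had 2.51 TPM (groove) and 18.2 TPM (submarginal zone). In all, 4 of the 9 genes, GPD1 included, were 2-fold lower, or 44.4% beside 27.6% of all genes. Of the 9, 1 was 2-fold higher, or 11.1% beside 15.2%. The 1 that was higher, etfA, is another gene named for the alpha subunit, and had 22.1 TPM in groove tissue and 10.4 TPM in submarginal tissue. It falls outside the naming rule and is named because the count is 1. So is the gene named ubiquinol oxidase, an alternative oxidase that takes electrons from ubiquinol past complexes III and IV; it had 10.7 TPM in the groove, against 7.88 TPM in the submarginal zone, and was the other member of the 9 with the higher value in the groove.

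Genes that build the organelle had lower values in the groove as well. Of 29 genes of the mitochondrial ribosome and of protein import, 13 were 2-fold lower, or 44.8% beside 27.6% of all genes, and all 29 had the lower value in the groove, beside 72.4% of all genes, with a median log2 ratio of -0.91. TIM17, a channel part of the import machinery, had a groove level of 54.0 TPM and a submarginal level of 79.4 TPM. TOM7, of the import pore in the outer membrane, had 36.5 TPM (groove) and 79.1 TPM (submarginal zone). TIM8, a small import chaperone, had 2.03 TPM in groove tissue and 10.02 TPM in submarginal tissue, a log2 ratio of -1.86. In the list of mitochondrial DNA maintenance only POLG2, a subunit of the mitochondrial DNA polymerase, reached 10 TPM. It had 4.56 TPM in the groove, against 11.99 TPM in the submarginal zone. Of 7 mitochondrial carriers and channels, 2 were 2-fold lower, or 28.6%, close to the 27.6% of all genes, and the median was -0.44. SLC25A3, the carrier that brings phosphate to the ATP synthase, had a groove level of 356 TPM and a submarginal level of 483 TPM. VDAC2, an outer membrane channel, had 269 TPM (groove) and 417 TPM (submarginal zone). SLC25A38, a glycine carrier in mammals and yeast, was the 1 of the 7 with the higher value in the groove, 289 TPM (groove) and 208 TPM (submarginal zone). It was picked out after its value was seen. SLC25A46, a protein of the outer membrane that acts in its fusion and fission in mammals, had 2.99 TPM in groove tissue and 12.8 TPM in submarginal tissue. SLC25A20_29, named for acylcarnitine carriers, had 3.57 TPM in the groove, against 13.8 TPM in the submarginal zone.

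Outside the mitochondrion, the vacuolar proton ATPase, a pump built like complex V, had 1 of 9 genes 2-fold lower and a median log2 ratio of -0.71. Its subunit ATPeV0C had a groove level of 56.2 TPM and a submarginal level of 92.6 TPM. Its e 2 subunit had 50.9 TPM (groove) and 62.8 TPM (submarginal zone). Its ATPeV1H subunit, the 1 at 2-fold, had 3.34 TPM in groove tissue and 11.9 TPM in submarginal tissue. Glycolysis, which yields the pyruvate, had 6 of 11 genes 2-fold lower, or 54.5% beside 27.6% of all genes, and none 2-fold higher, with a median of -1.02. The 1 gene of these 11 with the higher value in the groove, a hexokinase named HK and picked out after its value was seen, had 67.8 TPM (groove) and 39.7 TPM (submarginal zone), a log2 ratio of 0.76. A class I fructose-bisphosphate aldolase had 62.6 TPM in the groove, against 222 TPM in the submarginal zone. Enolase had a groove level of 52.3 TPM and a submarginal level of 107 TPM. A gene named PK, for pyruvate kinase, had 19.7 TPM (groove) and 82.0 TPM (submarginal zone), a log2 ratio of -2.01. A rarer gene of the same assembly cluster, named as a pyruvate kinase of the PKM type, had 0.050 TPM (groove) and 13.7 TPM (submarginal zone). A gene named PGAM, for phosphoglycerate mutase, had 18.7 TPM in groove tissue and 78.5 TPM in submarginal tissue.

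**Figure D4:**
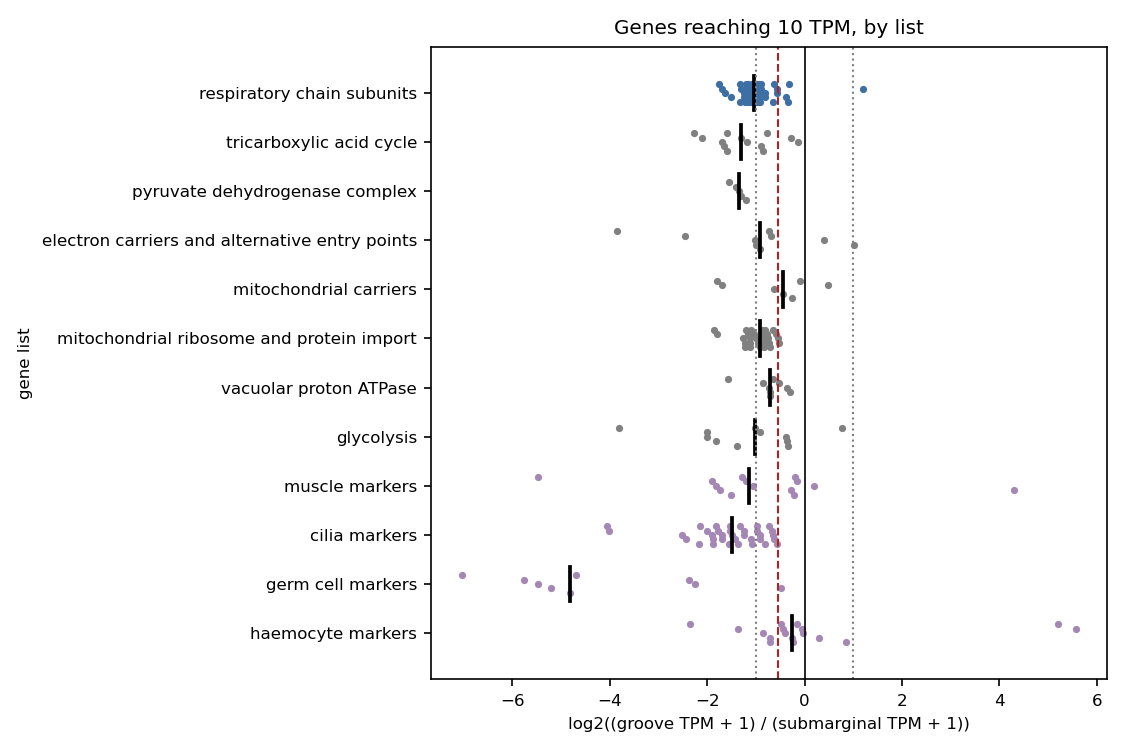
Log2 ratio of groove over submarginal zone for every gene that reached 10 TPM in the respiratory chain (blue), in the other gene lists (grey) and in the tissue marker lists (purple), with a black bar at the median of a list. The solid line is 0, dotted lines are 2-fold and the dashed line is the median of all genes reaching 10 TPM; the chain's median of -1.03 lies between those of the pyruvate dehydrogenase complex, -1.36, and of the mitochondrial carriers, -0.44.

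Markers of muscle, cilia and germ cells had lower sums in the groove too. A defining one of each was above 0 in both regions. Paramyosin, a muscle protein of molluscs, had up to 1392 TPM in the groove and up to 4900.2 TPM in the submarginal zone. The myosin gene MYH1s had 0.040 TPM (groove) and 45.5 TPM (submarginal zone). A titin gene went the other way, with 35.3 TPM (groove) and 0.84 TPM (submarginal zone). Tektin-2, a protein of ciliary microtubules, had 25.7 TPM in groove tissue and 106 TPM in submarginal tissue. DDX4, the germ cell marker vasa, had 5.17 TPM (groove) and 31.1 TPM (submarginal zone). Of the other germ cell genes, PIWIa had 19.3 TPM (groove) and 95.6 TPM (submarginal zone). SPATA18 had 19.3 TPM (groove) and 27.5 TPM (submarginal zone). SPATA7 had the higher value in the groove, with 8.59 TPM there and 7.09 TPM in the submarginal zone. Some germ cell genes were close to absent from the groove. The most abundant of the list, a testis-specific serine kinase named TSSK, had 0.10 TPM (groove) and 144 TPM (submarginal zone). SYCP1 had 0.19 TPM (groove) and 51.7 TPM (submarginal zone). Of 41 muscle genes, 14 reached 10 TPM, 8 of them 2-fold lower and 1 2-fold higher in the groove, or 57.1% and 7.14% beside 27.6% and 15.2% of all genes, and the 41 summed to 6824 TPM in the groove, against 20249 TPM in the submarginal zone; in the groove 8 were at 0, in the submarginal zone 6. Of 117 genes of cilia, 35 reached 10 TPM, 25 of them 2-fold lower, or 71.4%, and the 117 summed to 521 TPM in groove tissue and 1466 TPM in submarginal tissue; in the groove 14 were at 0, in the submarginal zone 10. Muscle and ciliated cells can be rich in mitochondria, but the mitochondrial content of these cells was not measured here. Of 18 germ cell genes, 9 reached 10 TPM, 8 of them 2-fold lower, or 88.9%, and the 18 summed to 64.0 TPM (groove) and 532 TPM (submarginal zone); in the groove 2 were at 0, in the submarginal zone 0. Of 24 haemocyte genes, 17 reached 10 TPM, 2 of them 2-fold lower and 2 2-fold higher, or 11.8% each way. The 24 summed to 2108 TPM in groove tissue and 2589 TPM in submarginal tissue, with 0 genes at 0 in either region. Of the 17, 13 were lower in the groove, and the 4 higher ones were all lysozymes. Both 2-fold higher ones, C-type lysozymes, had 432 and 58.6 TPM in the groove, against 10.7 and 0.25 TPM in the submarginal zone. Mytilin 8, the most abundant of the list, had 545 TPM (groove) and 889 TPM (submarginal zone). The part of these tissues in the lower level of the chain was not tested.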

How the data were processed

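Bulk RNA of mantle was sequenced from the periostracal groove and the submarginal zone of *Perna viridis*, 1 sample each. Per the labels' protocols, DNase I removed genomic DNA from the total RNA, and the Illumina TruSeq RNA kit was used for the libraries. Per the submitters' processing notes, fastp was used. Not given in the sources used here are its version, which assembler and quantifier followed, and where the annotation came from. The authors deposited 1 value per gene and region, taken here as TPM because the values sum to 999875 for the groove and to 999820 for the submarginal zone. All are multiples of 1/300 (within 0.002 after multiplication by 300), as means of 3 values with 2 decimals would be, and the study's design text speaks of 3 replicates. TPM keeps no depth, so no interval is given, and with 1 profile per region no test was run.

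Ratios are log2 of groove over submarginal zone with a pseudocount of 1 TPM, which understates differences of low genes. Genes were called at 2-fold with the higher region at 10 TPM or more, and medians were also taken over genes with a mean of 1 TPM or more. The 5 genes with empty values were left out. A product name is that of an assembled fragment's best database match, and 1 gene may appear as several fragments. Names were turned into subunit symbols by hand (1 alpha subcomplex subunit 10 is NDUFA10). Named are all subunits at 10 TPM or more except 1 that is not reported here, the mitochondrially encoded ones, assembly factors at 5 TPM or more, and of each other list up to 2 genes with the highest mean and up to 2 with the largest ratio. After their values were seen, 2 records were taken off the germ cell list (spatacsin and a proteasome subunit) and 1 off the muscle list (a CBL-interacting kinase), since only their wording matched. The members, lists and the 2-fold limit were chosen with earlier results of these data known. The alternatives tried were other pseudocounts, filters, scalings, fold limits and ways to define a member; a counting step was tested on simulated data. Python 3.11.15, pandas 2.3.3, numpy 2.4.6 and matplotlib 3.10.9 were used.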

Additional observations from a re-analysis of the deposited data

How the results depend on the processing

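The direction of the medians of the 5 complexes, of all subunits and of the summed TPM held under every alternative tried. The count of 30 subunits 2-fold lower in the groove was 5 under median-of-ratios and 5 under upper-quartile scaling, was 46 at 1.5-fold and 0 at 4-fold, and lay between 25 and 39 under the others. The count of 1 subunit 2-fold higher was 3 with no filter on low values and 0 at 4-fold. The median log2 ratio of mitochondrially encoded subunits, -0.31, was -1.07 with the higher filter (mean of 5 TPM or more) and -1.07 without fragments that do not match *Perna*; it was -0.95 with the 16 subunits named outside the rule. The last 2 alternatives were chosen after seeing the data. The median of mitochondrially encoded subunits was still negative but much smaller in size with no filter on low values. The same held under median-of-ratios scaling and with TPM summed per subunit name. Of 66 named genes, 2 turned sign under median-of-ratios scaling, SDHA and SDHC. No paired analysis was possible because each region has 1 deposited profile, so no replicate could be left out either. TPM keeps no depth, so precision of low genes is unknown.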

Other observations

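Other genes that serve the inner mitochondrial membrane were looked up by name after the values had been seen, so their number gives no support to the pattern of the chain. Both prohibitins, which form a ring-like scaffold in that membrane, were 2-fold lower in the groove: PHB1 had 16.9 TPM (groove) and 44.9 TPM (submarginal zone), and PHB2 had 18.6 TPM (groove) and 42.95 TPM (submarginal zone). IMMT, or mitofilin, which shapes the cristae where the chain sits, had 12.1 TPM (groove) and 28.8 TPM (submarginal zone). CHCHD3, of the same cristae-organising complex, had 62.4 TPM (groove) and 118 TPM (submarginal zone), a log2 ratio of -0.92. The Fe-Mn superoxide dismutase, of the family that removes superoxide in mitochondria, had 30.5 TPM (groove) and 62.1 TPM (submarginal zone). Arginine kinase, which in molluscs buffers ATP with phosphoarginine, had 182 TPM (groove) and 412 TPM (submarginal zone).

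Among factors that act on single subunits, the cytochrome c heme lyase, which attaches haem to cytochrome c, stood furthest apart, at 4.06 TPM (groove) and 20.4 TPM (submarginal zone), a log2 ratio of -2.08. BCS1, which inserts the Rieske protein into complex III, had 1.83 TPM (groove) and 7.59 TPM (submarginal zone), a log2 ratio of -1.60. An OXA1-type insertase, which places subunits in the inner membrane, had 3.60 TPM (groove) and 8.38 TPM (submarginal zone). The factors for the catalytic head of complex V were closer to equal: ATPeAF1 had a log2 ratio of -0.77 and ATPeAF2 one of -0.53. The copper protein SCO, needed for complex IV, had 4.55 TPM (groove) and 7.12 TPM (submarginal zone), a log2 ratio of -0.55. LRPPRC, which stabilises mitochondrial mRNAs in mammals, had 1.72 TPM (groove) and 4.92 TPM (submarginal zone), and the mitochondrial RNA polymerase had 1.33 TPM (groove) and 2.99 TPM (submarginal zone).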
